A study of Mus musculus with 14 samples.

Results

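The Atoh8 locus was described from consensus CUT&Tag peaks of primary mouse muscle stem cells (MuSCs). Its members were all peaks of the 6 deposited lists that overlapped the canonical transcript of Atoh8 or the 50 kb on either side of it, which gave 57 of 175565 peaks. The gene was chosen from these same lists, on the rank of its strongest pSMAD1/5/9 peak in BMP6-stimulated cells among the peaks without a control counterpart. Ranks, numbers of peaks and sharing are therefore given as a description and were not tested. Cells came from female mice of the genotype C57BL/6N(Tg(Pax7-EGFP)Tajb), 9 weeks of age, in which a Pax7 transgene drives the fluorescent protein, and GFP-positive cells of pooled limb and trunk muscles were sorted and cultured. All groups were starved of serum for 6 h with 200 ng/mL of a soluble BMP receptor (BMPR1A-Fc), and then received for 1 h either BMP6 at 100 ng/mL or its solvent, 4 mM HCl with 0.1% BSA, which is called control here. Antibodies against pSMAD1/5/9, SMAD4 and the histone mark H3K27ac were used on 100000 fixed cells per library, with 2 biological replicates per antibody and treatment, so 12 of the 14 libraries entered the lists.

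Atoh8 (also known as Math6) encodes an atonal-related transcription factor of the basic helix-loop-helix (bHLH) family, which is known as a target of BMP signalling in liver and endothelium. BMP receptors phosphorylate SMAD1, SMAD5 and SMAD9, which join SMAD4 and bind DNA at GC-rich sites and at the shorter SMAD box. H3K27ac marks active promoters and enhancers, so the lists together map where the BMP pathway met active chromatin around this gene. In CUT&Tag, an antibody directs the Tn5 transposase to chromatin, which is cut and tagged where the antibody sits.

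In GRCm39, Atoh8 (ENSMUSG00000037621.10) is transcribed from the minus strand of chromosome 6, between 72183161 and 72212602. The canonical transcript of 29442 bp has 3 exons. Exon 1 runs from 72211378 to 72212602, exon 2 from 72200726 to 72200917 and exon 3 from 72183161 to 72184139, so that intron 1 spans 10460 bp and intron 2 spans 16586 bp. With 50 kb on either side the region runs from 72133161 to 72262602 and holds no other protein-coding gene. The nearest ones are St3gal5, which ends 1605 bp beyond the downstream edge, and Sftpb, which starts 18992 bp beyond the upstream edge. Several long noncoding RNA (lncRNA) genes are annotated inside the region.

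Overlapping pSMAD1/5/9 and SMAD4 peaks of both treatments were joined into 12 sites, 6 of them upstream and 6 downstream of the transcription start site (TSS). Sites are named here by the distance of their middle from the TSS. After BMP6 stimulation, the strongest pSMAD1/5/9 and SMAD4 peaks of the locus shared a site in intron 2, 18.5 kb downstream of the TSS. The next strongest shared a site 18.9 kb upstream of it. The upstream site also carried the single control pSMAD1/5/9 peak of the region, whereas the intronic site carried SMAD4 but no listed pSMAD1/5/9 in control cells. No pSMAD1/5/9 peak lay at the TSS itself.

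**Figure D1:**
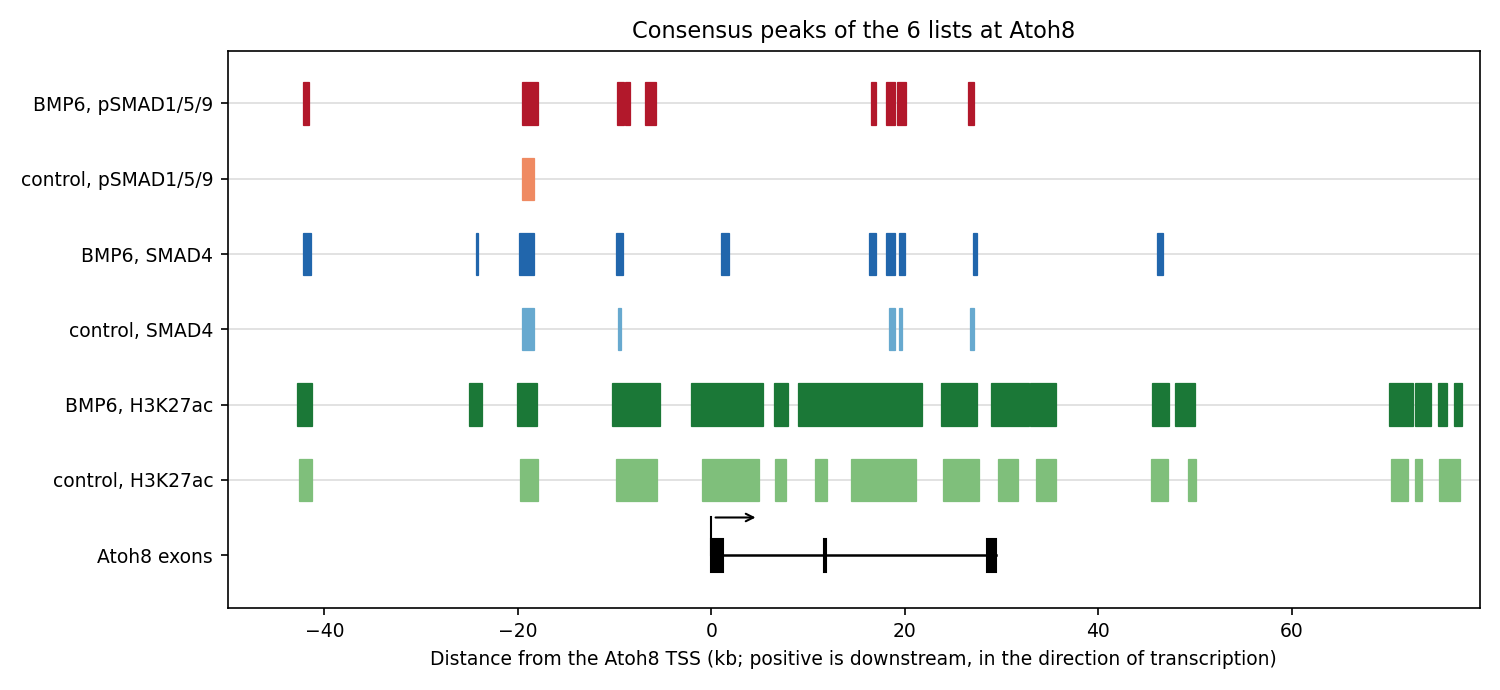
Consensus peaks of the 6 lists along the region, each drawn to scale as a box, with distance from the Atoh8 TSS in kb on the horizontal axis and 1 row per list. Black boxes are the 3 exons and the arrow gives the direction of transcription. BMP6-stimulated cells had 10 pSMAD1/5/9 peaks and control cells 1, which lay at the site 18.9 kb upstream.

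The DNA under the leading sites is shown to let their SMAD and E-box letters be compared. Each line gives 200 bases centred on a summit, on the plus strand of GRCm39 from 5′ to 3′, and capitals mark matches on either strand to GGCGCC or GGAGCC (the GC-rich SMAD site), GTCT (the SMAD box, AGAC on the other strand) and CAGCTG (an E-box, the letters bound by many bHLH factors). The first lies in intron 2 at chr6:72193783-72193982, around the strongest pSMAD1/5/9 summit. The next 3 lie upstream of the gene, at chr6:72231058-72231257 with the site that both treatments shared, at chr6:72218808-72219007 with a pSMAD1/5/9 peak that had no SMAD4 peak, and at chr6:72221762-72221961. The last is the summit of the SMAD4 peak nearest to the TSS, in intron 1 at chr6:72210921-72211120.
Intron 2, 18.5 kb downstream: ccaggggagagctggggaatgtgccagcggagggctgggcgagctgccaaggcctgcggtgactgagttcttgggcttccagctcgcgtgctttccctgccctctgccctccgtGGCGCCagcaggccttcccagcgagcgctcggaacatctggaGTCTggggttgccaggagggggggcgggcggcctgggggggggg
Upstream, 18.9 kb: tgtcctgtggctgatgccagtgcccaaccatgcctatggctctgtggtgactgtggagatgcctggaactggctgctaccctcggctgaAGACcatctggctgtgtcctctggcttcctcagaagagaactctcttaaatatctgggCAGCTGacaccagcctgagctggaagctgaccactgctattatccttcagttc
Upstream, 6.3 kb: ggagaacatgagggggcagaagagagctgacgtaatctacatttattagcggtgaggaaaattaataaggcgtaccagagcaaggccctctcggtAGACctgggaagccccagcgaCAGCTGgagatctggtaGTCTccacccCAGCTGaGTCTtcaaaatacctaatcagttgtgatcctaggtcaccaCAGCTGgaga
Upstream, 9.5 kb: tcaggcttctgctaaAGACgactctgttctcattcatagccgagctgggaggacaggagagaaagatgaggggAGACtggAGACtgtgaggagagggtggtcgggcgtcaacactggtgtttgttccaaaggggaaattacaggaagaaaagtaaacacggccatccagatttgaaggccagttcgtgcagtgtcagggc
Intron 1, 1.4 kb downstream: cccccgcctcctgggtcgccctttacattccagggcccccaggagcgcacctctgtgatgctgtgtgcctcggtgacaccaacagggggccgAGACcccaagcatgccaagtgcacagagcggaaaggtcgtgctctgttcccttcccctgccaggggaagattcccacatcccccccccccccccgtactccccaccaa

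Of these windows, the one in intron 2 had a GC-rich site, with GGCGCC centred 16 bp from the summit, and a SMAD box 57 bp from it. Its GC content was 71.5%, the highest of the 10 pSMAD1/5/9 windows at the locus, whose median was 55% against 56% over the whole list. The window 6.3 kb upstream held 3 E-boxes and 3 SMAD boxes and no GC-rich site. These windows were centred on consensus summits. At 6.3 kb both replicate summits lay outside the window, 57 bp from each other, so the letters under them are not shown. At 9.5 kb both lay just outside the window, and at 18.9 kb the summit of the second replicate column did. In the windows of intron 2 and intron 1 both replicate summits lay inside. In the window 18.9 kb upstream, a SMAD box lay 10 bp and an E-box 49 bp from the summit. The window 9.5 kb upstream held 3 SMAD boxes, and that in intron 1 held 1, 7 bp from its summit. Outside these windows, GC-rich sites were not confined to intron 2. The whole pSMAD1/5/9 peak in intron 2 held 2 of them, and those 18.9 kb, 6.3 kb and 9.5 kb upstream held 1, 1 and 3. The whole SMAD4 peak nearest to the TSS held 1. At 9.5 kb, the window around the SMAD4 summit of BMP6-stimulated cells held 2.

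Over the 10 pSMAD1/5/9 windows of BMP6-stimulated cells, a GC-rich site was found in 3, a SMAD box in 8 and an E-box in 3. Over all 7339 windows of that list the shares were 30.2%, 81.0% and 31.1%, so the locus held these letters about as often as the list. The AP-1 motif (TGACTCA or TGAGTCA) was found in 1 window, 41.8 kb upstream, against 15.5% of the list. Neither the SMAD palindrome GTCTAGAC nor a GC-rich site followed by a SMAD box after 5 bases was found in any of them, and both are rare, with shares of 0.518% and 0.286% in the list. The 10 SMAD4 windows of BMP6-stimulated cells held a GC-rich site in 4, a SMAD box in 10 and an E-box in 1, where the list had shares of 28.4%, 83.0% and 29.1%. Windows of peaks at 1 site overlap each other. A match describes letters in these windows and is no evidence of binding through them.

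Each peak carries a signal value, a score without a fixed range that equals the sum of both replicate columns of its list. Between lists, peaks were compared by rank only, because the lists have no stated common scale, and ratios of signal were taken within a list. Replicate columns are printed as each list gives them and carry no replicate number. The irreproducible discovery rate (IDR) gives how well both replicates rank a peak alike, as −log10 of the value, and every listed peak had an IDR of at most 0.05. Read counts are not part of the lists, so the number of reads under a peak is unknown, although the libraries of 1 antibody had been brought to a common depth. A peak missing from a list can have failed the calling or filtering of peaks in a replicate, or this threshold. Whether reads lay at such a place is not known from the lists.

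The strongest pSMAD1/5/9 peak ran from 72193603 to 72194580 in intron 2, with its summit 18719 bp downstream of the TSS. Its replicate columns held 55919 and 53226, and the sum ranked 24 of 7339 (top 0.327%). By single replicate columns it ranked 76 and 15, so it stood near the top of the list in both. Among the 6500 pSMAD1/5/9 peaks that overlapped no control pSMAD1/5/9 peak it ranked 5. Of the 24 strongest peaks of the list, 5 had no control counterpart, and this was the weakest of them.

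The second strongest pSMAD1/5/9 peak ran from 72230575 to 72231744, with a summit inside the lncRNA gene Gm30782, 18556 bp upstream of the TSS. Its replicate columns held 51849 and 27243, and the sum ranked 139 (top 1.89%). A smaller peak followed from 72231781 to 72232140 and ranked 4018. The single control peak, from 72230921 to 72232200, overlapped both of them. Its replicate columns held 31055 and 20626, its sum ranked 155 of 949 (top 16.3%), and its −log10 IDR was 1.78, short of the stricter IDR threshold of 0.01. At that threshold, 8 of the 10 peaks of BMP6-stimulated cells were left and no control peak. The shares of both whole lists that pass it were not computed, so these counts have no background. Of the nearest control pSMAD1/5/9 peaks outside the region on chromosome 6, those ranked 68, 372 and 797 also fell short. The one ranked 129 passed.

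Among the remaining pSMAD1/5/9 peaks listed after BMP6, 3 lay in intron 2. They had their summits 27112 bp, 19927 bp and 16862 bp downstream of the TSS and ranked 2188, 888 and 6637, and the last did not pass an IDR of 0.01. Upstream, 3 peaks lay within 10 kb of the TSS, with summits at 6306 bp, 8678 bp and 9260 bp and ranks of 729, 6113 and 1155. The farthest peak, 41855 bp upstream, ranked 3989, and its nearest protein-coding TSS was not that of Atoh8. Peaks of the locus thus spread over most of the range of the list, from the top 0.327% to the top 90.4%.

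Replicates agreed less on some of these peaks than on the leading one. At the site 6.3 kb upstream, which lies over the lncRNA gene Gm67899, the replicate columns held 35568 and 11375, a ratio of 3.13. This peak ranked 368 by the first column and 2407 by the second. The ratio was 1.05 at the intronic site and 1.90 at the site 18.9 kb upstream. The first column was the higher in 8 of the 10 peaks, and in 72.0% of the whole list.

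**Figure D2:**
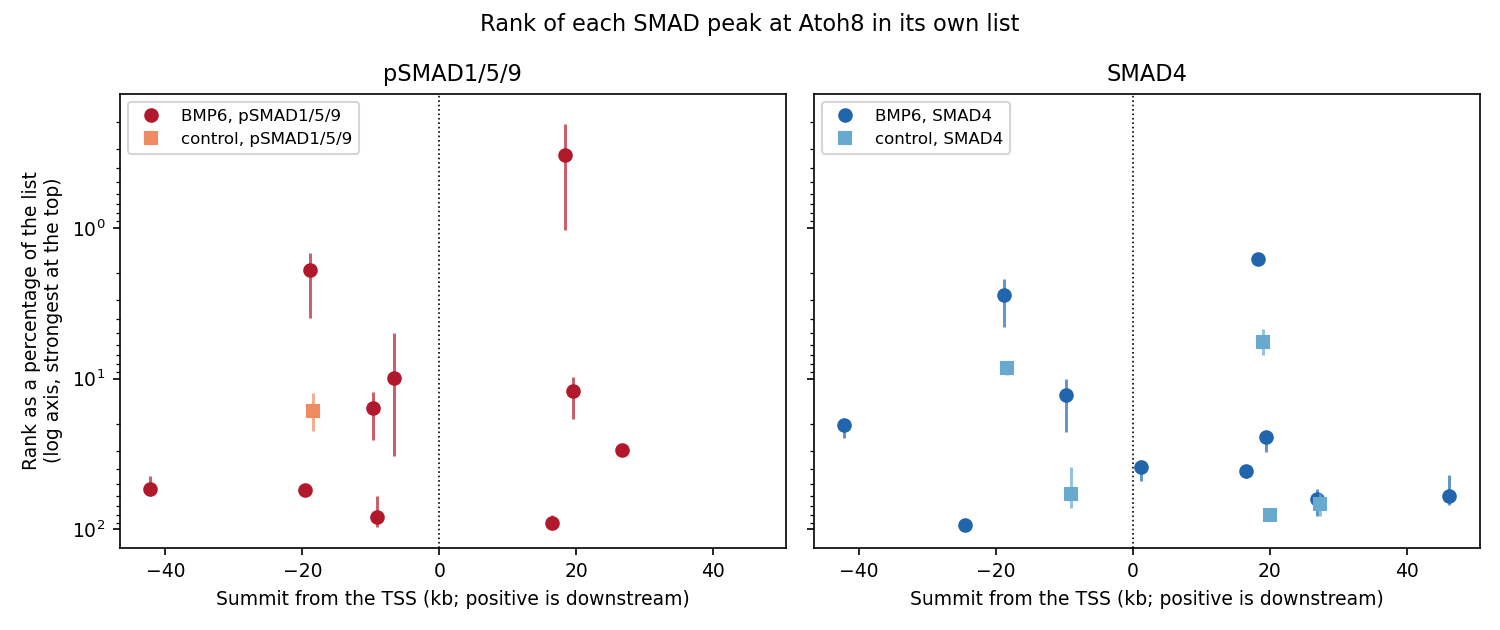
Rank of each pSMAD1/5/9 (left) and SMAD4 (right) peak at Atoh8 as a percentage of its own list (log axis, strongest at the top) against the distance of its summit from the TSS in kb. Circles are BMP6-stimulated cells, squares are control cells, shifted sideways by a small step, and bars join the ranks by the 2 replicate columns. The intronic pSMAD1/5/9 peak at the top 0.327% and the upstream peak at the top 1.89% lead, and both sites also hold the strongest SMAD4 peaks.

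For SMAD4, 10 peaks were listed after BMP6 stimulation and 5 without it. The strongest after BMP6 ran from 72193606 to 72194567 at the intronic site, with replicate columns of 36401 and 21223, and ranked 208 of 12860 (top 1.62%). In control cells, the peak from 72193606 to 72194232 was the strongest of the locus, with columns of 18919 and 14071 and a rank of 487 of 8577 (top 5.68%). The summits of these SMAD4 peaks lay 6 bp apart, and 53 bp and 59 bp from the pSMAD1/5/9 summit. These offsets were smaller than the gaps between replicate summits. Those gaps were 64 bp and 108 bp for SMAD4 after BMP6 and in control cells, and 66 bp for pSMAD1/5/9. At the site 18.9 kb upstream, the SMAD4 peak ranked 359 after BMP6 (top 2.79%) and 734 in control cells (top 8.56%). Its columns held 32383 and 15310 after BMP6, and 16682 and 10982 in control cells. Within each of the lists that had both sites, the intronic peak exceeded the strongest single peak of the upstream site. The ratio of their signals was 1.38 for pSMAD1/5/9 after BMP6, with 1.08 and 1.95 in the single columns. For SMAD4 the single columns gave 1.12 and 1.39 after BMP6, and 1.13 and 1.28 without it. The pSMAD1/5/9 ratio left out the smaller upstream peak, with columns of 10757 and 7400. For SMAD4, a single peak overlapped both upstream pSMAD1/5/9 peaks. In the first column, both upstream pSMAD1/5/9 peaks together exceeded the intronic one.

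SMAD4 peaks were also listed at places without pSMAD1/5/9, all of them in BMP6-stimulated cells. The one nearest to the TSS ran from 72210766 to 72211656 over the end of exon 1 and the start of intron 1, where the lncRNA gene Gm52906 is annotated on the other strand. Its columns held 8643 and 3447 and it ranked 4976. The others lay 24.2 kb upstream, with a rank of 12073 and an IDR short of 0.01, and 46.4 kb downstream, with a rank of 7753 and also short of 0.01. In the 10 SMAD4 peaks of BMP6-stimulated cells, the first replicate column was always the higher, by 1.10 to 3.01 times. This held for 91.9% of the whole list.

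**Figure D3:**
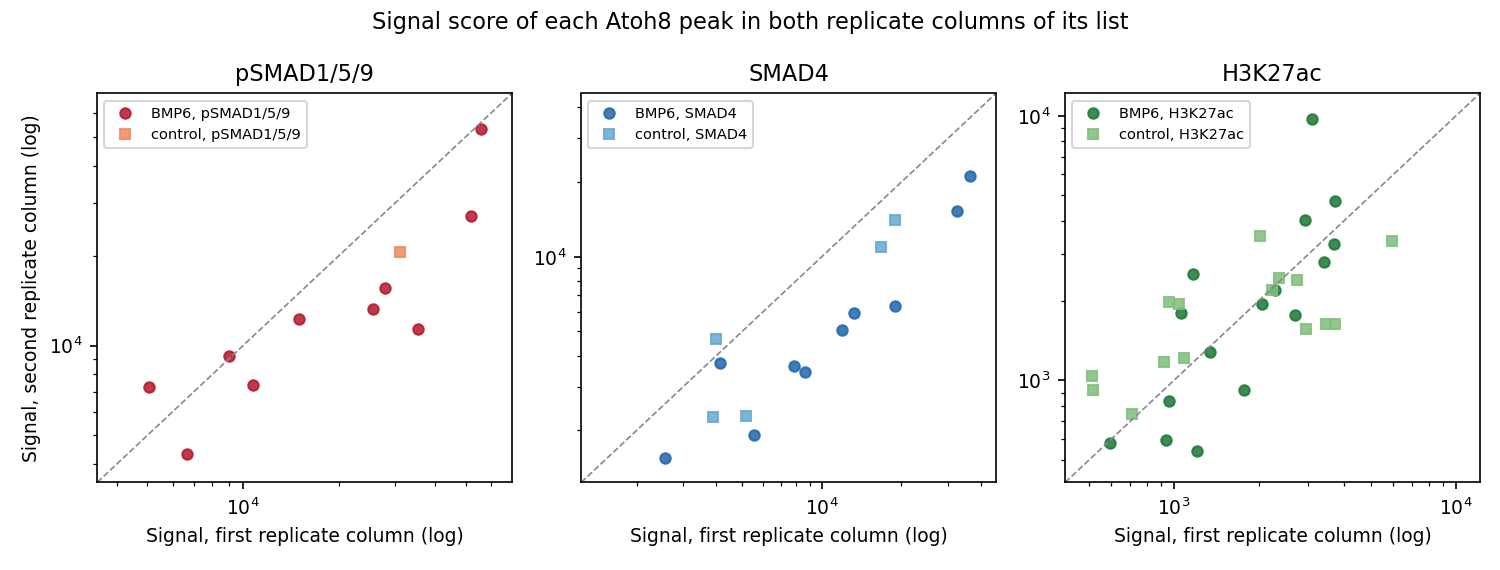
Signal score of each peak at Atoh8 in the first (horizontal) and second (vertical) replicate column of its list, on log axes, with a dashed line where both are equal. Circles are BMP6-stimulated cells and squares are control cells. All 10 SMAD4 peaks of BMP6-stimulated cells lie below the line, while the H3K27ac peaks lie on both sides of it.

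Among the 10 pSMAD1/5/9 peaks listed after BMP6, 8 overlapped no control pSMAD1/5/9 peak, where the whole list had 88.6%. For SMAD4, 5 of 10 overlapped no control SMAD4 peak, beside 54.5% of the list. Both counts were close to what the lists hold overall. All 5 control SMAD4 peaks had a SMAD4 counterpart after BMP6, which 30.3% of the control list lacked.

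Both antibodies met at most sites. A SMAD4 peak of BMP6-stimulated cells was present at 8 of the 10 pSMAD1/5/9 peaks, beside 73.2% of the list, and the exceptions lay 6.3 kb and 8.7 kb upstream. A control SMAD4 peak was present at 6 of the 10, beside 57.2%. In the other direction, 7 of the 10 SMAD4 peaks overlapped pSMAD1/5/9, beside 42.7% of the SMAD4 list. Of the 12 sites, 5 carried a SMAD peak in control cells and 7 did not. Of these 7, the sites 16.7 kb downstream and 41.8 kb upstream carried both pSMAD1/5/9 and SMAD4 after BMP6. The shares of such sites over the whole genome were not computed, so the site counts describe the locus only. In the whole lists, 88.6% of the pSMAD1/5/9 peaks and 54.5% of the SMAD4 peaks after BMP6 had no control counterpart of the same antibody. In control cells, SMAD4 was listed at all 5 sites with a control peak, and pSMAD1/5/9 only at the site 18.9 kb upstream. After BMP6, all 5 carried both antibodies.

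H3K27ac lay over most of the gene body in both treatments, covering 81.2% of it after BMP6 and 60.8% in the control, with 16 and 15 peaks in the region. The TSS lay in a peak of 7420 bp after BMP6, which ranked 7162 of 78050, and in a peak of 5900 bp in control cells, which ranked 15098 of 67790. Replicate columns of these TSS peaks held 2920 and 4046 after BMP6, and 3716 and 1635 in control cells. By single columns the TSS peak ranked 9054 and 5985 after BMP6, and 8910 and 27207 in control cells, whose list is the shorter. The widest peak of each list lay over 3 of the 4 SMAD sites in intron 2, and the site 26.9 kb downstream lay under a separate peak. It ran from 72190791 to 72203600 after BMP6 and from 72191401 to 72198200 in control cells, where a separate peak of 1300 bp covered exon 2. The wide peak of BMP6-stimulated cells ranked 862, but its columns held 3089 and 9711 and ranked it 7853 and 447. In control cells the columns of the wide peak were 5927 and 3350, and it ranked 4122.

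All 10 pSMAD1/5/9 peaks of BMP6-stimulated cells overlapped an H3K27ac peak of control cells, as did 97.5% of the list. Of the H3K27ac peaks after BMP6, 1 of 16 overlapped no control peak, beside 28% of the list. Its summit lay 24288 bp upstream, together with the weak SMAD4 peak there and ranked 51221. None of the 15 control peaks lacked a counterpart after BMP6, beside 13.2% of the control list. In total H3K27ac peaks covered 51800 bp (40.0% of the region) after BMP6 and 37800 bp (29.2%) in control cells, and 36540 bp were common to both. Over chromosome 6 as a whole the covered shares were 6.01% and 4.90%. Peak widths of these lists are multiples of 70 bp and 100 bp, respectively, and the part of this difference in the covered length was not tested.

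The nearest peaks beyond the edges of the region show what the 50 kb rule left out. In BMP6-stimulated cells, the next pSMAD1/5/9 peaks lay 43221 bp beyond the downstream edge, with a rank of 1721, and 76699 bp beyond the upstream edge, with a rank of 2390. The innermost members toward these edges ranked 2188 and 3989. For SMAD4 in control cells, a peak 2454 bp beyond the downstream edge ranked 8524, close to the end of its list. Another, 10911 bp beyond that edge in St3gal5, ranked 568, and no SMAD4 peak of BMP6-stimulated cells was listed there.

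Among the regions of 21757 protein-coding genes drawn in the same way, 60 (0.276%) held at least as many pSMAD1/5/9 peaks of BMP6-stimulated cells as Atoh8, and the most in any region was 21. Some peaks at Atoh8 lie close together, and 7 were left when those less than 500 bp apart were merged. The share of genes was not recomputed with merged peaks. For the control pSMAD1/5/9 list the share was 9.75%, which is also the share of genes with any such peak. For SMAD4, 1.2% of genes held at least as many peaks after BMP6 and 4.58% in control cells. For H3K27ac the shares were 11.3% and 10.4%. A pSMAD1/5/9 peak that ranked 24 or better after BMP6 was held by 74 genes, Atoh8 among them. Neighbouring genes share peaks, so these genes are fewer separate places than their number says. The region of Atoh8 spans 129.4 kb and the median region 116.3 kb.

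A list of 16 genes known as BMP targets or regulators was set beside Atoh8. It was chosen with earlier results of these data known, so its counts are a description and no independent comparison. After BMP6, 13 of the 16 had a pSMAD1/5/9 peak in their region (40.8% of all genes), with a median of 2 peaks where the median gene had 0, and 15 had a SMAD4 peak (51.7%). In control cells 4 had a pSMAD1/5/9 peak (9.75% of all genes) and 12 a SMAD4 peak (43.2%). As many pSMAD1/5/9 peaks as at Atoh8 were listed at Id3, an inhibitor of bHLH factors, with 10, and at Snai1, a transcriptional repressor, with 11. By rank, Smad7, an inhibitory SMAD, led the list, with its strongest pSMAD1/5/9 peak at 15, ahead of Atoh8 at 24. Smad6, the other inhibitory SMAD, followed at 90, Id3 at 152 and Id1 at 204. Smad6 and Smad7 had stronger SMAD4 peaks than Atoh8, at ranks 10 and 7 after BMP6. So had Snai1 at rank 32 and Id1 at rank 35. None of Smad6, Smad7, Id1 and Snai1 had a control pSMAD1/5/9 peak, while Id3 had 3. Hes1, Id2, Tmprss6 and Atoh8 had 1 each. Hamp, the iron hormone hepcidin, and Bambi, a decoy receptor, had 1 pSMAD1/5/9 peak each, at ranks 6407 and 5615.

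The atonal-related bHLH relatives of Atoh8 had few SMAD peaks. Of 15 such genes, Atoh7 had 1 pSMAD1/5/9 peak in its region after BMP6, at rank 2706, and the other 14 had none, beside the 40.8% of all genes that had one. For SMAD4, Neurod6 had 1 peak after BMP6 (51.7% of all genes had one) and Atoh7 had 1 in control cells (43.2%). An H3K27ac peak was listed in the region of 8 of the 15 after BMP6 (81.1% of all genes) and of 5 in control cells (80.3%). Atoh1, the atonal homologue known from hair cells and cerebellar neurons, had no peak in any of the 6 lists.

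By the distance between the percentiles of the strongest peak over the 6 lists, where 0 is an equal pattern, the genes most like Atoh8 were Sik1 at 4.43, Klf10 at 4.51, Ephb2 and Lactbl1 at 5.26 each, and Etf1 at 5.28. Ephb2, an ephrin receptor, and Lactbl1 share their strongest peaks, and Etf1 encodes a release factor of translation. At Sik1, which encodes a salt-inducible kinase, the strongest pSMAD1/5/9 peak after BMP6 ranked 25 and the strongest SMAD4 peak 65. At Klf10, a zinc finger factor induced by TGF-β, they ranked 134 and 89. The measure uses the same ranks that chose Atoh8 and covers 6 lists, each a consensus of 2 libraries. With the number of peaks in place of the percentile, 0 of these 5 genes were among the nearest 5.

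**Figure D4:**
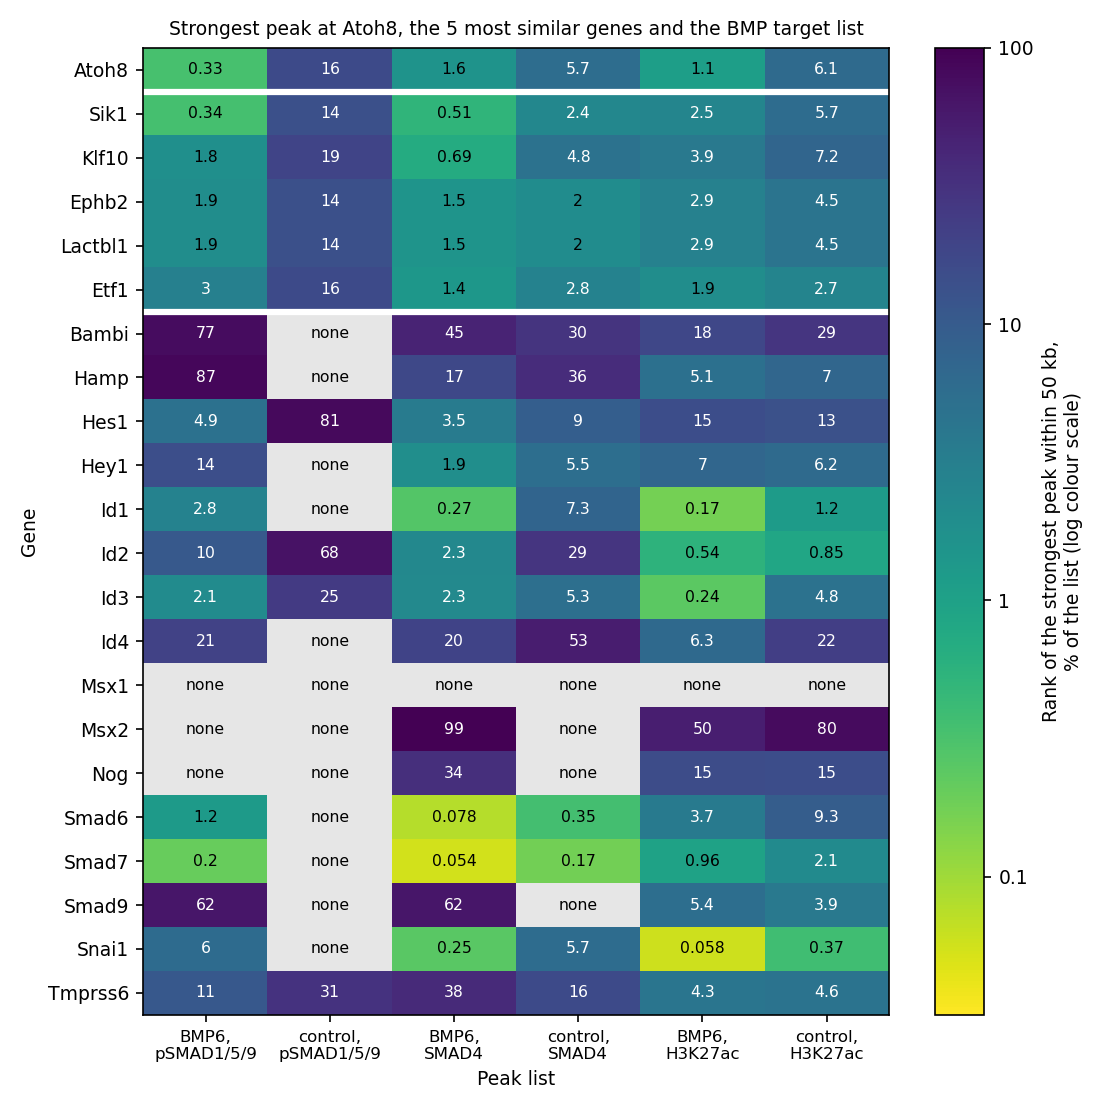
Rank of the strongest peak within 50 kb of each gene, as a percentage of the list (colour on a log scale, value in each cell), for Atoh8 (top), the 5 genes with the most similar pattern and the 16 genes of the BMP target list, with 1 column per list. Grey cells marked none had no peak. For pSMAD1/5/9 after BMP6, Smad7 at rank 15 stands above Atoh8 at rank 24 in this set.

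The label of the cells was compared with H3K27ac at the TSS of marker genes. All 7 MuSC markers, Pax7, Myf5, Myod1, Cdh15, Itga7, Des and Vcam1, had a peak within 2 kb of the TSS in both treatments. Of 11 markers of other cells of muscle, 3 had one in each treatment, namely Cd68, Ckm and Myh1, and their ranks lay between 12731 and 50045. Endothelial Pecam1 and Cdh5, immune Ptprc, fibro-adipogenic Pdgfra, Ly6a and Dcn and mural Rgs5 and Myh11 had none. The share of all genes with such a peak at the TSS was not computed, so the marker counts have no background. In the wider regions with 50 kb on either side, 81.1% of all genes had an H3K27ac peak after BMP6 and 80.3% in control cells. The lists hold 949 to 78050 peaks each. Libraries made with no primary antibody, 2 in all, were left out.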

How the data were processed

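CUT&Tag libraries of 12 samples entered 6 consensus lists. According to the methods, the authors brought the libraries of each antibody to 1 depth by subsampling, aligned with Bowtie2 2.5.4 to GRCm39, processed alignments with SAMtools 1.21 and bedtools 2.31.1, called peaks per replicate with JAMM (filtered peaks for the SMADs, all peaks for H3K27ac), and retained consensus peaks up to an IDR of 0.05. The deposited signal is a score made by the authors' peak caller, and the deposited IDR is given as −log10 of the value, with a ceiling of 5. Because reads were subsampled and lists thresholded, weak peaks can be missing from a list.

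Positions were made 1-based, and the last peak on every chromosome lay within GRCm39. Genes were canonical GENCODE transcripts of the same build. Overlap meant at least 1 bp, and motifs were searched on both strands in 200 bp windows. Simulated overlaps were recovered for 600 of 600 planted among 2000 peaks. Python 3.11.15, numpy 2.4.6, pandas 2.3.3, pysam 0.24.0, samtools 1.23.1 and matplotlib 3.10.9 were used. Named genes were Atoh8, both gene lists, the 5 genes most like Atoh8 and the markers. St3gal5, Sftpb and the lncRNA genes are named for their position and were added after values were seen. The members and lists were chosen with earlier results of these data known. No test was made, because the gene was chosen on these lists and each list is 1 consensus per condition. Protein sequences were not used here.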

Additional observations from a re-analysis of the deposited data

How the results depend on the processing

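Of 117 recomputed values, 86 stayed within 1.5 times the reported value for a count or, for a rank, within 1 SD of the ranks by the 2 replicate columns. That SD came from the same 2 single-column ranks that were also scored. Ranks on which the columns differed most were thus given the widest margin, so the count of 86 is no measure of stability. The best rank at the locus depended on the replicate column. By single columns, the best rank ran from 15 to 76 for pSMAD1/5/9 after BMP6, from 119 to 211 in control cells, from 193 to 228 for SMAD4 after BMP6, from 402 to 596 in control cells, from 447 to 4545 for H3K27ac after BMP6 and from 2441 to 7536 in control cells. For H3K27ac, different peaks held the best rank by each column. The leading H3K27ac peak itself ranked 7853 and 447 after BMP6, and 2441 and 8439 in control cells. With signal divided by width, the best rank was 624 for control pSMAD1/5/9, 137 and 203 for SMAD4 after BMP6 and in control cells, and 13529 for control H3K27ac. That last rank belonged to another peak, with its summit 18881 bp upstream of the TSS. At an IDR of at most 0.01, 0 control pSMAD1/5/9 peaks and 2 control SMAD4 peaks were left at the locus. The shares of the whole lists left at that threshold were not computed. With 100 kb on either side, control SMAD4 had 10 peaks, and H3K27ac 32 after BMP6 and 27 in control cells. With 20 kb, H3K27ac had 10 after BMP6. When 50% of both peaks had to overlap, 1 pSMAD1/5/9 peak after BMP6 was shared with control pSMAD1/5/9, 3 with control SMAD4 and 1 with control H3K27ac. By that rule, 3 SMAD4 peaks were shared between treatments. A peak with less than 50% of the width of the other cannot meet it. Median widths at the locus were 681 bp for pSMAD1/5/9 after BMP6 and 1900 bp for control H3K27ac. By the summit, 3 SMAD4 peaks were shared between treatments. At an IDR of at most 0.01 in both lists, 0 pSMAD1/5/9 peaks and 2 SMAD4 peaks were shared between treatments, and 3 pSMAD1/5/9 peaks with control SMAD4. Shares of the whole lists under these rules were not computed, so these sharing counts have no background. With 50 kb around the TSS only, 31 genes had at least as many pSMAD1/5/9 peaks after BMP6 as Atoh8, and for SMAD4 126 after BMP6 and 646 in control cells. In whole peaks, the GC-rich site was found in 5 of the 10 pSMAD1/5/9 peaks after BMP6, beside 58.3% of the list. The cause of these differences was not tested. No paired analysis was possible because the results come from no test and the replicate columns carry no replicate number.

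Each list combines 2 libraries and gives no counts per sample, so no error can be put on a difference between treatments. Position near Atoh8 does not show that a site acts on this gene.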
